A study of Mus musculus with 9 samples.

Results

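The group described here holds 4 immediate early response (Ier) genes, Ier2, Ier3, Ier5 and Ier5l, and 2 cysteine- and serine-rich nuclear protein genes, Csrnp1 and Csrnp2, 6 in all. They were taken by symbol from a table of 35275 genes, and each symbol matched 1 row. The group was selected on these same libraries, with earlier results of the RNA-seq experiment known, so the members' levels, fold changes and calls are a description, and p-values are given only where a call of Ier5l was lost under another setting. RNA came from wild type mouse embryonic fibroblasts (MEFs) of strain C57Bl/6. The 3 groups were cells in iso-osmolar medium (control), cells at 500 mOsm (200 mM added sucrose) and cells at 600 mOsm (300 mM added sucrose). Sucrose in the medium draws water from the cell, and the exposure lasted 3 h. Each group had 3 libraries of poly(A) RNA. No label says whether these came from separate embryos or cultures, so the spread between them may be technical.

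Immediate early genes are transcribed within minutes of a stimulus, without new protein synthesis, through factors that are already present in the cell. Their mRNAs are as a rule short, with few introns, and many carry AU-rich elements in the 3′ UTR, which mark them for rapid decay. Ier2, Ier5 and Ier5l share an amino-terminal domain, and Ier2 and Ier5 bind the B55 regulatory subunits of protein phosphatase 2A (PP2A). Through PP2A, Ier5 promotes the dephosphorylation and activity of Hsf1, the regulator of the heat shock response. Ier3 (IEX-1) is not related to them in sequence. It is a small stress-inducible protein and a known target of NF-κB that modulates cell survival and ERK signalling. Csrnp1 (Axud1) and Csrnp2 are cysteine- and serine-rich nuclear proteins that bind DNA, and Csrnp1 was first described as a gene induced by Axin1.

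Total counts were 21716042 to 26740832 per library, and a member had between 421 and 25601 reads in each library. Fibroblast markers summed to 21746 to 26707 CPM, a gene's reads relative to the TMM-scaled total of its library, led by Col1a1 at 9685 CPM. Markers of other cell types were far lower, and only Myog was at 0 in every library. The endothelial markers (Pecam1, Cdh5, Kdr, Tek) summed to 0.778 to 0.900 CPM in iso-osmolar medium, 12.0 to 13.4 CPM at 500 mOsm and 2.13 to 3.18 CPM at 600 mOsm. The leukocyte markers found in the table summed to 12.2 to 12.9, 17.4 to 19.6 and 11.5 to 12.1 CPM in the same order, and the epithelial markers to 1.43 to 1.76, 5.00 to 6.39 and 1.61 to 2.34 CPM. Muscle and neural markers summed to 6.17 to 8.48, 5.22 to 6.39 and 4.88 to 6.03 CPM. The part of these markers in the members' levels was not tested. In bulk RNA, fewer cells of a type and less of a transcript per cell cannot be told apart, and all levels are relative to the total of each library.

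The genes differ in structure, which the choice by symbol did not use. In mm10 the authors' table places Ier2 on the minus strand at chr8:84661331-84662852, Ier5 on the minus strand at chr1:155096361-155099636 and Ier5l on the minus strand at chr2:30471537-30474219. Each of these is a single exon, as are 2.66% of 11371 protein-coding genes tested here, whose median is 9 exons. Ier3 lies on the plus strand at chr17:35821684-35822923 and has 2 exons. Csrnp1, on the minus strand at chr9:119971166-119977250, has 4 exons, and Csrnp2, on the minus strand at chr15:100479570-100495239, has 5. At most 2 exons are found in 7.25% of the coding genes, so 4 of the 6 members belong to a small class. Csrnp1 lies inside the annotated span of Cx3cr1 on the same strand, and Cx3cr1 had 0 to 6 reads per library. No other annotated transcript shared 100 bases or more with a member at 95% identity or above.

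The 3′ UTRs were searched for the pentamer ATTTA, the core of AU-rich elements, and the heptamer TATTTAT. The Ier3 3′ UTR of 613 bases holds 5 pentamers, or 8.16 per kb, a density reached by 1.73% of coding genes, and 4 heptamers, a number reached by 1.19%. Csrnp1 holds 5 pentamers in 1075 bases (4.65 per kb, reached by 7.85%) and Csrnp2 holds 7 in 2234 bases (3.13 per kb, reached by 18.7%). Csrnp2 has 3 heptamers, a number reached by 3.30%, and Csrnp1 has 1, reached by 27.9%. Ier5l, Ier5 and Ier2 have 0 heptamers. The median of all coding genes was 1.22 per kb. Ier5l has 3 pentamers (2.39 per kb), Ier5 has 2 (0.933 per kb) and Ier2 has 0. The 30-base windows with most pentamers (in capitals) are shown for the genes with the densest elements, from base 168 to 197 after the stop codon in Ier3, base 138 to 167 in Csrnp1 and base 1326 to 1355 in Csrnp2.
Ier3: ccgtgtctaattaatATTTAtgtATTTAtg
Csrnp1: acattaacactctgaATTTATTTAtttttt
Csrnp2: ctcttcacttggctttatctATTTATTTAt
Of the 6 genes, Ier3, Csrnp1, Csrnp2 and Ier5l were above the median density and Ier5 and Ier2 below it.

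The start regions of 4 members are printed to let the members that rose at 500 mOsm (Ier3, Ier5) be set beside those that did not (Ier5l, Csrnp2). Each runs from 250 bases before to 50 bases after the RefSeq start (GRCm38.p6), at chr17:35821463-35821762 on the plus strand for Ier3, chr1:155099587-155099886 on the minus strand for Ier5, chr2:30474150-30474449 on the minus strand for Ier5l and chr15:100495190-100495489 on the minus strand for Csrnp2. Capitals mark the motif TATAA, the motif CCAAT, the GC box (its letters are GGGCGG) and the NF-κB site, each searched on both strands.
Ier3: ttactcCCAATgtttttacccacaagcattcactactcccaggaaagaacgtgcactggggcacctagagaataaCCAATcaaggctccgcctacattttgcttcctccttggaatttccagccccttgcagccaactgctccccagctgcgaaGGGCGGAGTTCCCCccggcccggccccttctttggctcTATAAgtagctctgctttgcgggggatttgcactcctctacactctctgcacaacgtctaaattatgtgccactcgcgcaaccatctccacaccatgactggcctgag
Ier5: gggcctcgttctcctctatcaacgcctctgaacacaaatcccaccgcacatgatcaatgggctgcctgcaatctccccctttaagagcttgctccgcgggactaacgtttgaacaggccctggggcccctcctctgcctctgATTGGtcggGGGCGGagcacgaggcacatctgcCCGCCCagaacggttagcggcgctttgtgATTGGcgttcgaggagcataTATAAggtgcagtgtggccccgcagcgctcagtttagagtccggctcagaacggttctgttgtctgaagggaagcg
Ier5l: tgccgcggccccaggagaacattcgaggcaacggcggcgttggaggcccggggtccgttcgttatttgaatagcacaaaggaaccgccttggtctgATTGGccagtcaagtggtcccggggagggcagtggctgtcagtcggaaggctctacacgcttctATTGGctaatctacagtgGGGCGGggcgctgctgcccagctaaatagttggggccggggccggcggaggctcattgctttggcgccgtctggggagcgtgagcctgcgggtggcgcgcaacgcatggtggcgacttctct
Csrnp2: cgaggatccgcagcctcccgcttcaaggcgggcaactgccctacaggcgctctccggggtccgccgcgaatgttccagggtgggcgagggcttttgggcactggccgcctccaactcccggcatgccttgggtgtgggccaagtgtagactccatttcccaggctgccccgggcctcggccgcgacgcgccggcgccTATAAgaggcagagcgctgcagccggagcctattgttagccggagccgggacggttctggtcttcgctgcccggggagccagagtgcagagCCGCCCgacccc

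Of these promoters, that of Ier3 alone held an NF-κB site, found in 4.51% of 32851 RefSeq promoters of the same length. It begins at position -92, with motif positions given for the first base and counted from the start, and shares its first bases with a GC box at -96. CCAAT occurs 2 times in each of the Ier3, Ier5 and Ier5l windows and not in that of Csrnp2 (37.4% of promoters hold it). TATAA, held by 24.9%, is at -58 in Ier3, at -26 in Ier5 and at -53 in Csrnp2. The GENCODE gene begins upstream of the RefSeq start in Ier3 (35821684 against 35821713), Ier5l (30474219 against 30474199) and Csrnp2 (100495488 against 100495239). Positions from the GENCODE start would differ for these genes, and in Csrnp2 the TATAA lies inside the GENCODE gene. Each of the 4 windows holds at least 1 GC box, as do 35.7% of promoters. It lies before the start in Ier3 (-96), Ier5 (-99 and -75) and Ier5l (-72), and after the start in Csrnp2 (38). Csrnp1 has 4 RefSeq starts, all upstream of the end that the authors' table gives the gene, and the counts per gene do not tell which was used, so none is printed. Each of its windows holds TGACG, the core of the cAMP response element (20.8% of promoters). The third also holds a TonE, the element of the osmotic factor NFAT5, at -43 (4.96%), and the fourth holds 2 AP-1 sites (TGANTCA, 7.81%) at -102 and -14. These shares are for a single window, and with 4 windows searched a match somewhere in Csrnp1 is more likely than they say. No window held a CArG box, the site of serum response factor (1.63% of promoters), the heat shock motif TTCNNGAA (8.52%) or the ETS core CCGGAA (14.9%). Ier2 is not in the promoter table used. A match is a run of letters and was not tested for binding.

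Raising the medium to 500 mOsm came with higher levels of 4 members, and the changes of Csrnp1 and Ier3 were the largest. Csrnp1 was at 36.7, 43.0 and 38.9 CPM in the iso-osmolar replicates 1 to 3 and at 371, 396 and 364 CPM at 500 mOsm. Every library at 500 mOsm was far above every iso-osmolar library, and the fitted change was 9.53-fold (log2 fold change 3.25, SE 0.065). Ier3 was at 124, 133 and 127 CPM and rose to 848, 909 and 976 CPM, a 7.12-fold change (2.83, SE 0.065). The groups of Ier3 did not overlap either. Ier5, the PP2A and Hsf1 partner, was at 126, 149 and 137 CPM and at 335, 323 and 287 CPM (1.20, SE 0.10). Ier2 had the smallest rise, from 220.4, 244 and 236 CPM to 354, 324 and 354 CPM (0.56, SE 0.057), again without overlap.

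Csrnp2 and Ier5l did not follow. Csrnp2 was at 31.4, 30.2 and 28.6 CPM in iso-osmolar medium and at 17.3, 19.6 and 16.1 CPM at 500 mOsm, lower in every library (log2 fold change -0.77, SE 0.090). Ier5l was at 206, 288 and 264 CPM and at 216, 222 and 177 CPM, and these ranges overlapped (-0.30, SE 0.18, not called). In the edgeR quasi-likelihood fit over 13082 genes, with a Benjamini-Hochberg adjusted p under 0.05 as the call, 4 members were called higher where 13.2% of all genes were, and 1 was called lower where 14.8% were. The median over the members was 0.88 and that of all genes 0.01. Offsets for GC content and length lowered the Ier2 change to 0.29, still called, and moved Ier5l to -0.57, then called lower.

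**Figure D1:**
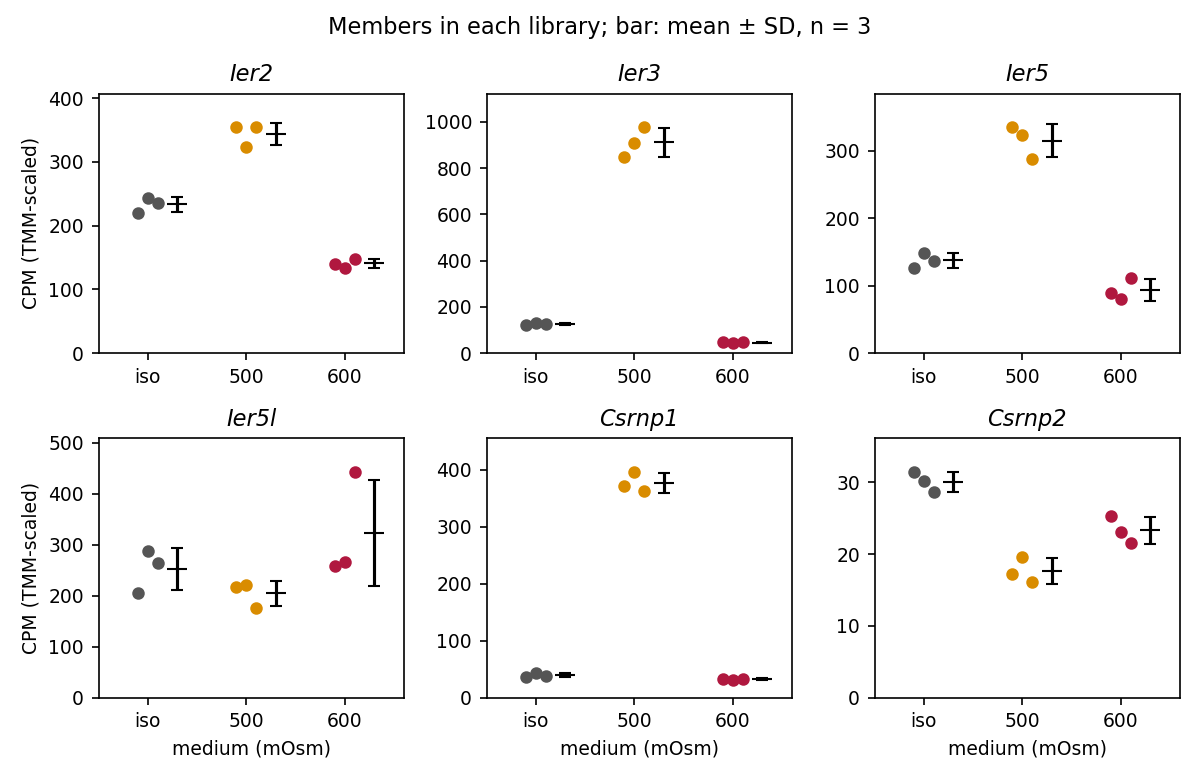
Level of each member (vertical axis, CPM scaled by TMM factors, from 0) in the 9 libraries by medium (horizontal axis), with points for libraries and bars for the mean ± SD of 3. Csrnp1 and Ier3 at 500 mOsm sit at 364 CPM or more and 848 CPM or more, above all their other libraries, and 1 Ier5l library at 600 mOsm (443 CPM) stands above the other two.

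At 600 mOsm the members that had been high at 500 mOsm were below the iso-osmolar level. Ier3 was at 49.3, 43.1 and 47.1 CPM, less than every iso-osmolar library, with a log2 fold change of -1.46 (SE 0.065), or 2.75-fold lower. Ier2 was at 140.1, 134 and 148 CPM (-0.73, SE 0.057) and Ier5 at 89.6, 80.7 and 111 CPM (-0.55, SE 0.10). Neither overlapped its iso-osmolar range. Csrnp1 was at 33.7, 31.7 and 33.4 CPM, a small difference from the iso-osmolar 36.7 to 43.0 CPM (-0.26, SE 0.065, and -0.18 with upper-quartile factors, called in both). Csrnp2 was at 25.3, 23.1 and 21.5 CPM, between its 2 other groups (-0.37, SE 0.089). Ier5l was at 259, 266 and 443 CPM, which overlapped the iso-osmolar libraries (0.35, SE 0.18, not called).

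Against iso-osmolar medium, 0 members were called higher at 600 mOsm, where 15.1% of all genes were, and 5 were called lower, where 20.0% were. DESeq2 also called 0 higher, and 0 were higher at an unadjusted edgeR p under 0.05. The members' median was -0.46 and that of all genes 0.01. The order of the falls was not that of the rises at 500 mOsm. Among the members called, Csrnp1 had the largest rise and the smallest fall, and Ier3 came next to it in the rise and had the largest fall.

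Between 600 and 500 mOsm the range of the members was widest. Ier3 was 19.6-fold lower at 600 mOsm (log2 fold change -4.29, SE 0.070), Csrnp1 11.4-fold lower (-3.52, SE 0.066), Ier5 3.36-fold lower (-1.75, SE 0.10) and Ier2 2.44-fold lower (-1.29, SE 0.058). Csrnp2 was 1.32-fold higher at 600 than at 500 mOsm (0.40, SE 0.091), with no overlap between the groups. In all, 4 members were called lower, where 17.2% of all genes were, and 2 called higher, where 11.9% were. The members' median was -1.52 and that of all genes 0.01.

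The second member called higher was Ier5l (log2 fold change 0.65, SE 0.18), and its value leaned on 1 library. Replicate 3 at 600 mOsm had 443 CPM, which was 0.50 above its group's mean on the log2 scale. Without it the change was 0.36 and no longer called (edgeR adjusted p = 0.0554). Without replicate 3 at 500 mOsm it was 0.56, again not called (edgeR adjusted p = 0.0690), and DESeq2 did not call it either (0.66, adjusted p = 0.0538). The same 600 mOsm library also had the highest Ier5 of its group, 0.26 above the mean on the log2 scale. Its Ier3, Csrnp1 and Ier2 were within 0.08 of their means, and its Csrnp2 was at -0.11 from its mean.

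**Figure D2:**
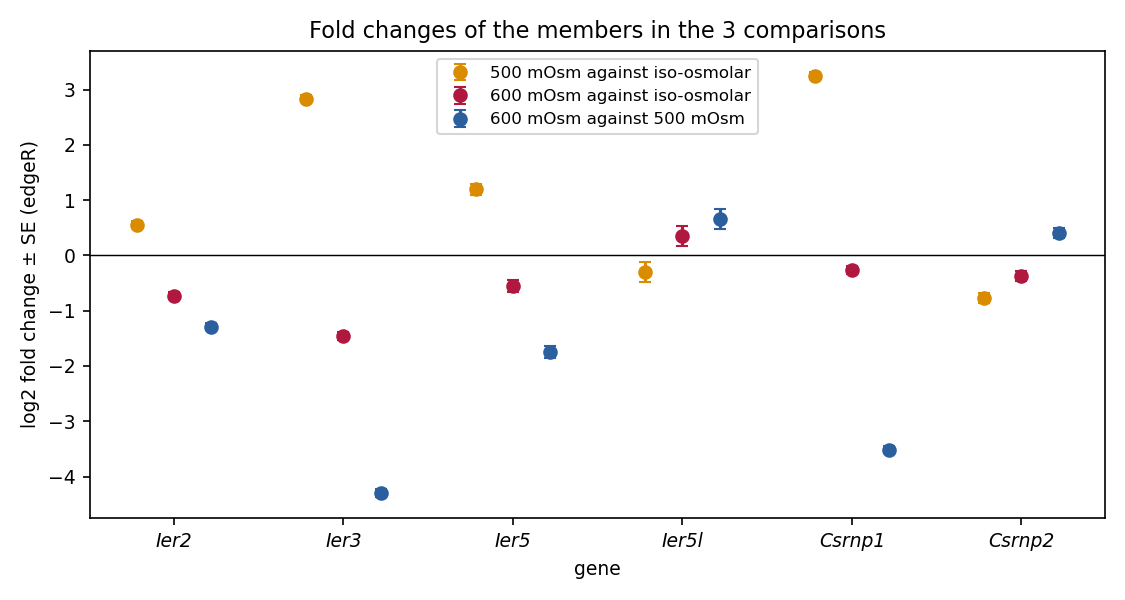
Fitted log2 fold change (vertical axis) of each member (horizontal axis) in the 3 comparisons, as points with SE bars. Ier2, Ier3, Ier5 and Csrnp1 lie above 0 for 500 mOsm against iso-osmolar and below 0 in the other comparisons, and Csrnp2 is at -0.77 where Csrnp1 is at 3.25.

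The call pattern of Ier2, Ier3, Ier5 and Csrnp1 (higher at 500 mOsm, lower at 600 mOsm than in either other medium) was shared by 138 of 13082 genes, or 1.05%. Together the 6 members took 0.0753 to 0.0880% of the reads in iso-osmolar medium, 0.215 to 0.220% at 500 mOsm and 0.0585 to 0.0783% at 600 mOsm.

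Levels of different genes were compared per length, in the authors' FPKM (reads relative to gene length and library size). In iso-osmolar medium the order was Ier2 (154 ± 6.71, SD, n = 3), Ier3 (114 ± 3.04), Ier5l (94.6 ± 14.9), Ier5 (42.2 ± 3.10), Csrnp1 (13.8 ± 0.972) and Csrnp2 (7.32 ± 0.351). At 500 mOsm Ier3 led at 808 ± 61.6 FPKM, followed by Ier2 (227 ± 13.5), Csrnp1 (132 ± 4.66), Ier5 (96.4 ± 6.98), Ier5l (76.6 ± 8.56) and Csrnp2 (4.28 ± 0.394). Csrnp1 thus passed Ier5 and Ier5l, and Ier3 passed Ier2. At 600 mOsm Ier5l came first at 119 ± 36.3 FPKM, before Ier2 (91.7 ± 2.98), Ier3 (40.7 ± 2.34), Ier5 (28.3 ± 4.25), Csrnp1 (11.4 ± 0.232) and Csrnp2 (5.60 ± 0.501). Neighbours in these orders had ranges that did not overlap, but Ier5l and Ier2 at 600 mOsm differed by less than the SD of Ier5l. Csrnp2 was the lowest of the 6 in every medium, and the members spanned from 4.28 to 808 FPKM at 500 mOsm.

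**Figure D3:**
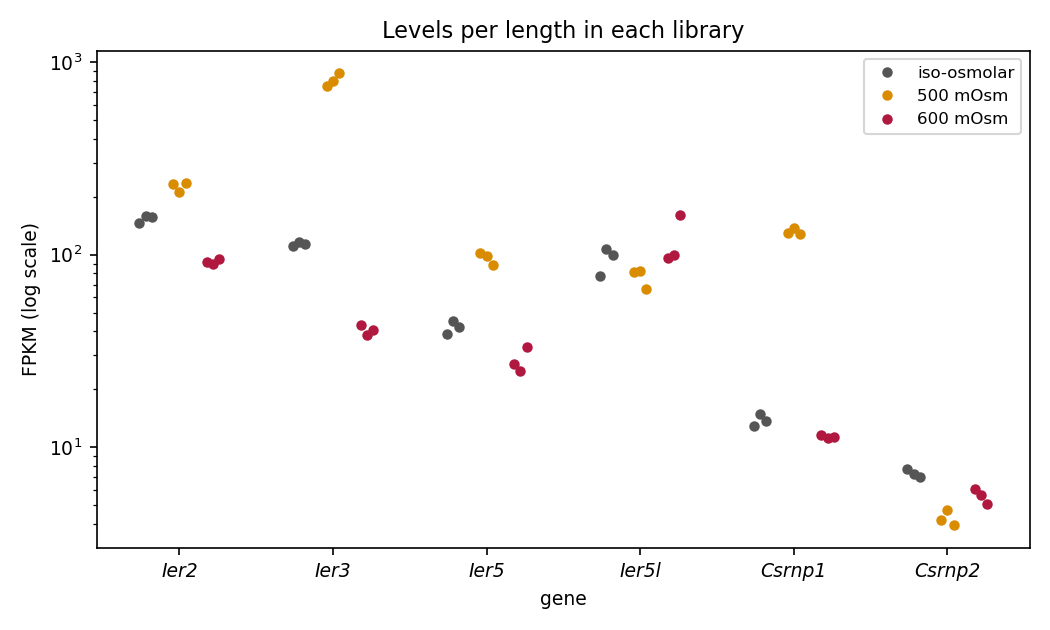
FPKM (vertical axis, log scale) of each member (horizontal axis) in every library, coloured by medium. Ier3 is between 752 and 874 FPKM at 500 mOsm and between 38.5 and 43.1 FPKM at 600 mOsm, the widest span of the 6.

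Relatives outside the group were also looked up. Csrnp3, the paralog of Csrnp1 and Csrnp2, had 1 read in 1 of 9 libraries (500 mOsm replicate 3) and 0 in the others, where a count of 0 allows up to 0.113 to 0.137 CPM (counting error only), so it was not tested. Ier3ip1, which encodes a small endoplasmic reticulum protein that interacts with Ier3, was at 8.03 ± 0.646, 7.22 ± 0.597 and 7.95 ± 1.16 CPM in iso-osmolar, 500 mOsm and 600 mOsm cells (SD, n = 3) and was not called in any comparison.

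For each member, the genes most like it over the 9 libraries were found by Pearson's r of log2 CPM, among the 10381 genes whose average log2 CPM reached 1. The values below are descriptions, since the libraries are shared by all genes and their 3 media set most of the variation. For Ier2 they were Hbegf (r = 0.997), Zfp217 (0.991) and Cflar (0.991). For Ier3 they were Smad7 (0.998), Tnfaip3 (0.998) and Slco4a1 (0.997), the first an inhibitor of TGF-β signalling and the second an inhibitor of NF-κB signalling. Csrnp1 was nearest to the immediate early genes Fos (0.997) and Egr1 (0.996) and to Gp1ba (0.996). Ier5 was nearest to Foxj2 (0.994), Tsc22d2 (0.991) and Smad7 (0.990), and Csrnp2 to Tmppe (0.992), Zbtb39 (0.991) and Zfp553 (0.983). Ier5l stood apart, with Ydjc (0.970), Hic1 (0.954) and Sac3d1 (0.953) nearest and only 5 genes above 0.95, against 83 to 114 for the other members. With Spearman's rank correlation the nearest 3 were other genes, except Smad7 for Ier5 and Tmppe for Csrnp2.

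The wider class of immediate early genes moved with the members in part. Of 48 other immediate early genes, 24 rose and 11 fell at 500 mOsm against iso-osmolar medium (median log2 fold change 0.32, all genes 0.01), where 13.2% and 14.8% of all genes did. At 600 mOsm 4 rose and 36 fell against iso-osmolar medium (median -0.62, with 15.1% and 20.0% of all genes), and 2 rose and 37 fell against 500 mOsm (median -0.95, with 11.9% and 17.2%). The pattern of Ier2, Ier3, Ier5 and Csrnp1 was found in 15 of them. Another 11 were lower at 600 mOsm than in both other media without a call at 500 mOsm. Fos, a subunit of AP-1, rose from 2.84 ± 0.276 to 40.0 ± 2.33 CPM at 500 mOsm (SD, n = 3; log2 fold change 3.81, SE 0.10) and was at 2.53 ± 0.226 CPM at 600 mOsm. Fosb, another AP-1 subunit, was at 5.17 ± 0.271, 43.5 ± 0.874 and 3.41 ± 0.448 CPM. Dusp1, a phosphatase of MAP kinases, was at 50.7 ± 1.56, 583 ± 41.5 and 52.7 ± 1.89 CPM.

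Others of the class moved as Csrnp2 did at 500 mOsm. Dusp5, the phosphatase of nuclear ERK, fell from 161 ± 8.21 to 29.4 ± 0.346 CPM and was at 38.9 ± 2.18 CPM at 600 mOsm. Egr3, a zinc finger factor, fell from 23.9 ± 2.39 to 3.94 ± 0.250 CPM and was at 3.54 ± 0.391 CPM at 600 mOsm. Per1, a clock repressor, was at 46.3 ± 1.10, 14.2 ± 1.34 and 33.2 ± 4.28 CPM, and with Dusp5 was 1 of the 2 genes of the class that were higher at 600 than at 500 mOsm.

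The factors known to drive immediate early genes (serum response factor, its ETS partners, CREB, NF-κB and NFAT5 among them) form the next list. Of 16 tested, edgeR called 0 higher and 6 lower at 500 mOsm (all genes, 13.2% and 14.8%), 0 and 10 at 600 mOsm against iso-osmolar medium (15.1% and 20.0%), and 0 and 8 at 600 against 500 mOsm (11.9% and 17.2%), and DESeq2 gave the same counts. The medians were -0.10, -0.39 and -0.25, beside 0.01 for all genes in each comparison. Before adjustment, 0 were higher at an edgeR p under 0.05 in each comparison. Elk4 was at 41.5 ± 0.662, 27.7 ± 1.84 and 24.5 ± 3.38 CPM and Elk3 at 110 ± 1.45, 75.9 ± 1.09 and 50.5 ± 0.700 CPM, both ETS partners of serum response factor. Nfat5, the tonicity factor, was at 67.7 ± 10.4, 83.9 ± 13.4 and 36.4 ± 7.48 CPM, and its fall from 500 to 600 mOsm passed the test (log2 fold change -1.21, SE 0.15).

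The next lists hold genes of PP2A subunits, among them the B55 ones that Ier2 and Ier5 bind, and Hsf1 with its chaperone targets. Of 16 PP2A subunit genes tested, edgeR and DESeq2 each called 1 higher and 0 lower at 500 mOsm (all genes, 13.2% and 14.8%), and 0 higher and 5 lower at 600 mOsm against iso-osmolar medium (15.1% and 20.0%) and against 500 mOsm (11.9% and 17.2%). The medians were 0.04, -0.07 and -0.09. The counts lower at 600 mOsm were above the share of all genes, a difference that was not tested. At an unadjusted edgeR p under 0.05, 3 were lower at 500 mOsm, and 0 and 1 were higher at 600 mOsm against iso-osmolar medium and 500 mOsm. The gene that rose was Ppp2r5e, a B56 regulatory subunit, from 28.8 ± 0.623 to 34.6 ± 2.20 CPM, and it was at 24.8 ± 0.877 CPM at 600 mOsm. Strn, a scaffold subunit of another PP2A complex, was at 29.9 ± 1.38, 27.7 ± 3.69 and 19.2 ± 2.51 CPM. The B55 genes tested, Ppp2r2a and Ppp2r2d, were not called in any comparison (log2 fold change -0.16 and 0.14 at 500 mOsm against iso-osmolar medium). Of 13 genes for Hsf1 and its chaperone targets, 4 rose and 0 fell at 500 mOsm (all genes, 13.2% and 14.8%), 3 rose and 3 fell at 600 mOsm against iso-osmolar medium (15.1% and 20.0%), near the share of all genes, and 0 rose and 5 fell from 500 to 600 mOsm (11.9% and 17.2%). The medians were 0.08, -0.06 and -0.13. DESeq2 gave the same counts, and at an unadjusted edgeR p under 0.05 1 was lower at 500 mOsm and 0 were higher from 500 to 600 mOsm. Hsf1 itself was not called in any comparison (log2 fold change 0.08, -0.07 and -0.15). Hspa1b, an inducible Hsp70 chaperone, was at 23.3 ± 2.25, 633 ± 50.2 and 48.6 ± 2.70 CPM. Hspa1a was at 0.212 ± 0.0133, 6.17 ± 0.842 and 2.20 ± 1.09 CPM, but these near-identical copies share reads and their split is uncertain. Bag3 (log2 fold change 0.48) and Hspb1 (0.29) rose less at 500 mOsm, and 9 of the 13 genes were not called there.

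**Figure D4:**
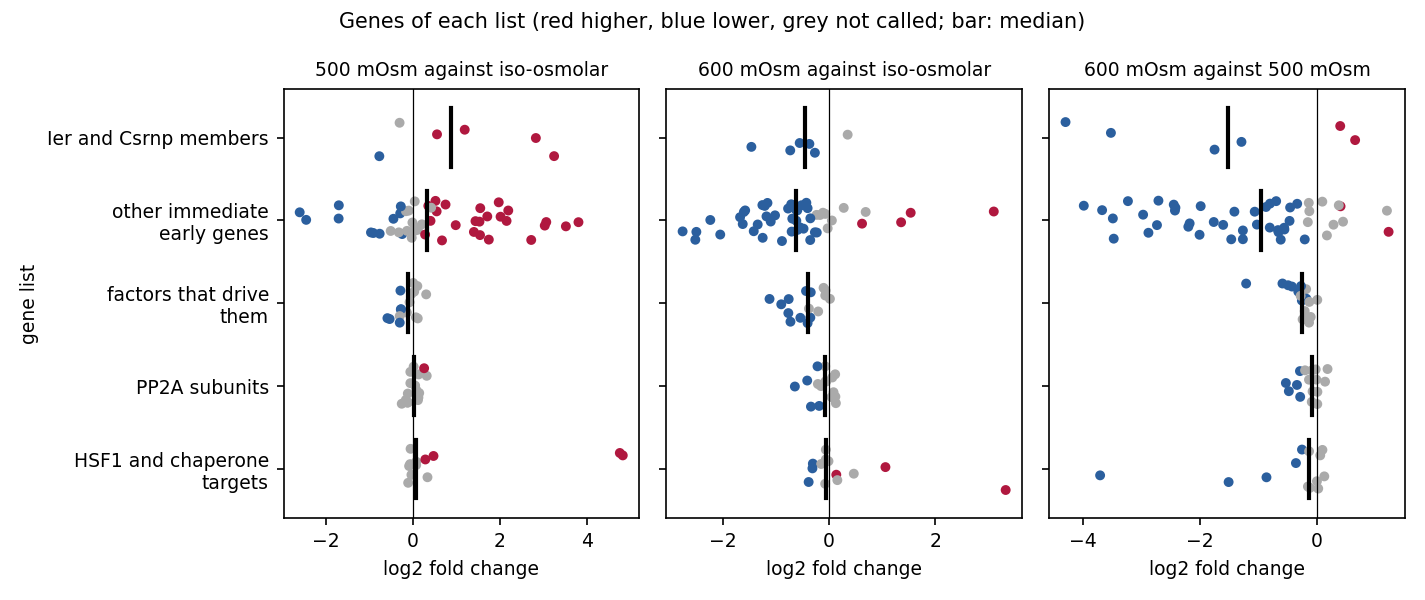
Log2 fold change (horizontal axis) of each tested gene in the members and 4 other lists (vertical axis) for the 3 comparisons, red where called higher, blue where called lower and grey otherwise, with the median as a bar. At 500 mOsm against iso-osmolar medium the members ranged from -0.77 to 3.25, the other immediate early genes from -2.60 to 3.81, the driving factors from -0.58 to 0.31, the PP2A genes from -0.25 to 0.32 and the Hsf1 list from -0.11 to 4.83.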

How the data were processed

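The authors sequenced poly(A) RNA of 9 libraries, aligned the reads to mm10 (CASAVA 1.8 and STAR are named in the submitters' processing notes) and deposited 1 table with a count of reads per gene, without normalization, and an FPKM per library. The counting tool, its strand setting and the annotation are not given in the sources used here. The table's columns of fold changes, p-values and group means were not used. The members and gene lists were chosen with earlier results of these data known.

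Counts were scaled by TMM and tested in edgeR 4.0.16 (R 4.3.3) by the quasi-likelihood test, with medium as the only term in 1 fit of the 9 libraries and on the 13082 genes kept by filterByExpr. Benjamini-Hochberg adjustment ran over these genes with a threshold of 0.05, and the test was tried on simulated counts. CPM are TMM-scaled. FPKM were used between genes, and log2(FPKM + 1) or + 0.1 in limma 3.58.1 as alternatives, beside DESeq2 1.42.0, other scaling factors and filters, a fold threshold, GC content and length offsets, a replicate block and each library left out. The authors' methods state DESeq2. Replicate libraries differed by 4.94 to 14.6 chi-square per degree of freedom, more than sampling noise. Libraries with the same number did not deviate together (mean r = -0.0847 over 9 pairs).

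Besides the members, genes named are the relatives Csrnp3 and Ier3ip1, the 3 genes nearest each member, and in each list the 2 called genes per direction with the largest change at 500 mOsm against iso-osmolar and at 600 against 500 mOsm. Some markers, the B55 genes, Hsf1, Bag3 and Hspb1 are named as well. Exons, 3′ UTRs and overlaps came from GENCODE M21 (longest coding sequence per gene), promoters from RefSeq (5 of 6 members matched), and shared sequence from blastn 2.17.0. The labels name no batch.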

Additional observations from a re-analysis of the deposited data

How the results depend on the processing

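Over 23 alternatives, 398 of the members' fold changes kept their direction and side of the threshold, 12 lost a call, 4 gained one and 0 reversed. With no filter on genes, 2 members were called lower at 500 mOsm against iso-osmolar medium and 1 higher at 600 mOsm. With GC content and length offsets, alone or with the replicate block, 2 were called lower at 500 mOsm. A fold change of at least 2 (log2 of 1) left 3 higher and 0 lower at 500 mOsm, without Ier2 and Csrnp2, 1 lower at 600 mOsm against iso-osmolar medium and 0 higher at 600 against 500 mOsm. In the last comparison DESeq2 and an adjusted p under 0.01 each left 1 higher, and leaving out 1 library gave 1 to 2. The gained or lost calls were of Ier5l except under the fold threshold, where the lost calls were those of members with smaller changes.

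The replicate numbers did not pair the libraries (same-number correlation -0.241 to 0.156, and 0 of 9 libraries correlated best with their own number). The replicate block alone changed no call, with 4 members higher and 1 lower at 500 mOsm as without it. The 3 libraries per medium limit the precision of all SDs. Csrnp3 and some genes of the other lists had too few reads to be tested, among them 2 of 18 PP2A genes and 1 of 17 driving factors.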
